A study of Rattus norvegicus with 47 samples.

Results

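Chemokines are small secreted proteins that draw leukocytes towards injured tissue along a concentration gradient. In the brain, Ccl2, Ccl3, Ccl4 and Cxcl10 are made at low levels at rest and are induced in microglia, astrocytes and vessel cells by inflammatory cytokines. Cx3cl1 (fractalkine) differs from them: it is made by neurons at rest, is held on the cell surface by a mucin-like stalk, can be cut free by the proteases Adam10 and Adam17, and signals to microglia through Cx3cr1. The values below are those of all probe sets whose platform annotation names one of these 5 genes. They number 8 of the 8799 probe sets on the array, and their genes are 5 of the 4737 named there. All 8 passed the filter on dim probe sets, which left 7503 for testing.

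The 8 probe sets are X17053cds_s_at and X17053mRNA_s_at for Ccl2 (gene identifier 24770), U22414_at for Ccl3 (25542), U06434_at for Ccl4 (116637), U17035_s_at for Cxcl10 (245920), and rc_AA800602_s_at, AF030358_at and AF030358_g_at for Cx3cl1 (89808). Each names 1 gene. Probe sets of 1 gene share their target and are not replicates of each other. Values are signals in arbitrary units as deposited. A difference is on the log2 scale after signals under 185.8, the 25th percentile of all values, were raised to that floor. Ccl2 X17053cds_s_at was above the floor on 45 of 47 arrays, X17053mRNA_s_at on 30, Cxcl10 on 32, Ccl4 on 22 and Ccl3 on 13, so differences of the last 3 and of X17053mRNA_s_at depend on where the floor is set. All 3 Cx3cl1 probe sets were above it on all 47 arrays.

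Total RNA of rat brain was measured on 47 arrays after an injury that the labels do not describe further. Cortex on the side of the injury (ipsilateral) was measured at 4 h on 7 arrays and at 24 h on 8, and cortex of the other side (contralateral) on 8 arrays at each time. Hippocampus, written HC in the labels, was measured at 4 h on 7 ipsilateral and 9 contralateral arrays. Strain, sex, age, the kind and severity of the injury and any sham operation are not given in the labels, and every group carries only a time after injury. A contralateral array is therefore the other side of a brain, not uninjured tissue, and the groups may mix animals handled differently. The labels number RNA extractions and do not state that each array held another animal. Samples of different sides or regions may come from the same animals, and the tests treat all arrays as independent. Every p-value here rests on array-to-array spread alone, and that spread may be technical. In bulk tissue fewer cells of a type and less RNA per cell cannot be told apart.

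The 5 markers of hippocampus (Neurod1, Lct, Doc2b, Gpr161 and Sncg) summed to 9488 to 17669 on the hippocampal arrays and to 2529 to 4126 on the cortical ones, so the region labels and these markers did not part on any array. The arrays' trimmed means lay between 2503 and 2504. One array stood apart for these chemokines: array 23, labelled contralateral hippocampus although its number lies inside the run of ipsilateral ones, had the highest signal of its group for Ccl2, Ccl3, Cxcl10 and 2 of the Cx3cl1 probe sets and the lowest for the other, AF030358_g_at. Array 23 also had the highest 10th percentile of signal of any array, 98.9, with array 32 next at 75.9. On the ipsilateral hippocampal arrays this percentile lay between 36.4 and 56.7. Why array 23 differed was not tested. Array 23 was kept as labelled, and each hippocampal comparison of the chemokines is given with and without it.

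Promoter sequences from RefSeq (build GRCr8; 250 bases before each gene's start to 50 after it) were matched for 2 of the 5 genes, Cxcl10 and Cx3cl1. No window was available for Ccl2, Ccl3 or Ccl4, so only these 2 are shown. One is an inducible chemokine and the other is made at rest. The Cxcl10 window is chr14:15988816-15989115 on the plus strand and the Cx3cl1 window is chr19:10242771-10243070 on the minus strand. Capitals mark every match, on either strand, to 4 motifs: GAAA and GAAA with 2 bases between them (the core of an interferon-stimulated response element), GGG and TTCC with 3 bases between them (a form of the NF-kB motif), TGA and TCA with 1 base between them (AP-1), and the core promoter element TATAAA.
Cxcl10: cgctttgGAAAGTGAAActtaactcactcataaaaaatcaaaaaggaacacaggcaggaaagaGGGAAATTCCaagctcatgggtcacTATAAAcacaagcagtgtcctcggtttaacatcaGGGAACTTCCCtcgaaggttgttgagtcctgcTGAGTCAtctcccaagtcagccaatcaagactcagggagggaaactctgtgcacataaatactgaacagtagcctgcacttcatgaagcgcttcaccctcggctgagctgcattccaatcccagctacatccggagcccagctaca
Cx3cl1: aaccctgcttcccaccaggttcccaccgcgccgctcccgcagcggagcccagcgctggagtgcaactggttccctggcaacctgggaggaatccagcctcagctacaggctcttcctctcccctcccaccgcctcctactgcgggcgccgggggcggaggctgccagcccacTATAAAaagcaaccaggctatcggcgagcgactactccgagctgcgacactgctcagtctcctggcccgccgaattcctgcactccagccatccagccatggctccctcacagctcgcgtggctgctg

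The Cxcl10 window held GAAAGTGAAA from position -243 relative to the gene's start, GGGAAATTCC from -187, TATAAA from -162, GGGAACTTCC from -128 with an overlapping match on the other strand from -127, and TGAGTCA from -96. The Cx3cl1 window held TATAAA from -78 and none of the other 3 motifs. Among 33469 promoter windows of this length, 3.92% held the interferon-response core, 5.37% the NF-kB form, 7.33% the AP-1 motif and 14.2% TATAAA. A match describes these letters only. It does not show that a factor binds there, and the array did not measure binding.

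In cortex at 4 h, the 4 inducible chemokines were higher on most ipsilateral arrays, and the ipsilateral arrays differed widely from each other. Ccl2 and Cxcl10 stood above every contralateral array on 6 and 5 of the 7 ipsilateral arrays, while the 3 Cx3cl1 probe sets differed between sides by 0.12 or less. None of the 8 probe sets passed the adjusted threshold of 0.05 (limma), and 0% of all 7503 did. At an unadjusted p under 0.05, 5 of the 8 were counted (both of Ccl2, Ccl3, Ccl4 and Cxcl10), beside 558 of 7503 (7.44%). Of the 8, 6 were higher ipsilaterally with a median difference of 0.98, beside 49.3% and a median of -0.0023 over all probe sets tested.

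Ccl2, also called MCP-1, attracts monocytes through Ccr2. Its X17053cds_s_at signal on the 7 ipsilateral cortical arrays at 4 h ran from 509.7 through a median of 803 to 3883, against 235, 413 and 571 on the 8 contralateral ones. Arrays 5, 7 and 8 were highest at 3883, 2614 and 3868, arrays 3, 4 and 6 lay between 579 and 803, and array 1 alone overlapped the contralateral range. Having 6 or more of 7 ipsilateral arrays above the highest contralateral one was seen for 0.16% of all probe sets tested. The difference was 1.76 (SE 0.56, 95% interval 0.63 to 2.90; 3.40-fold), with an adjusted p of 0.404 in limma. X17053mRNA_s_at gave 133 to 3113 against 22.2 to 523, again with 6 of 7 arrays above, and a difference of 2.30 (SE 0.68; adjusted p 0.303).

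Ccl3, or MIP-1 alpha, attracts monocytes and other leukocytes, in part through Ccr1. Its signal at 4 h was 1818, 518, 805 and 1479 on ipsilateral cortical arrays 5, 6, 7 and 8, and under the floor at 17.4, 69.4 and 122 on arrays 1, 3 and 4. The contralateral arrays ran from 10.1 through a median of 41.5 to 292, the last on array 15. The ipsilateral arrays thus fell apart, 4 above every contralateral array and 3 within their range; 2.45% of all probe sets had 4 or more above. The difference was 1.33 (SE 0.43; 2.51-fold; adjusted p 0.420 in limma), and 2.36 when the floor was set at the 10th percentile (adjusted p 0.324).

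Ccl4, or MIP-1 beta, attracts monocytes and T cells. It ran from 30.1 through 329 to 785 ipsilaterally and from 26.6 through 137 to 524 contralaterally. Arrays 5 and 7 were above every contralateral array, array 4 was near the bottom of both groups, and 18.3% of all probe sets had 2 or more arrays above. The difference was 0.63 (SE 0.29; adjusted p 0.654 in limma), and 1.14 with the floor at the 10th percentile.

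Cxcl10, or IP-10, is induced by interferons and by NF-kB and attracts Cxcr3-bearing T cells. It ran from 122 through 1030.0 to 1345 ipsilaterally and from 53.2 through 130 to 427 contralaterally. Arrays 5 to 8 lay close together between 1030.0 and 1345, array 3 was at 752, array 4 at 281 and array 1 at 122, the last 2 within the contralateral range; 0.613% of all probe sets had 5 or more arrays above. The difference was 1.54 (SE 0.43, 95% interval 0.67 to 2.40; 2.90-fold; adjusted p 0.217 in limma). Its p was the smallest of the 5 genes and ranked 28 among 7503 probe sets.

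**Figure D1:**
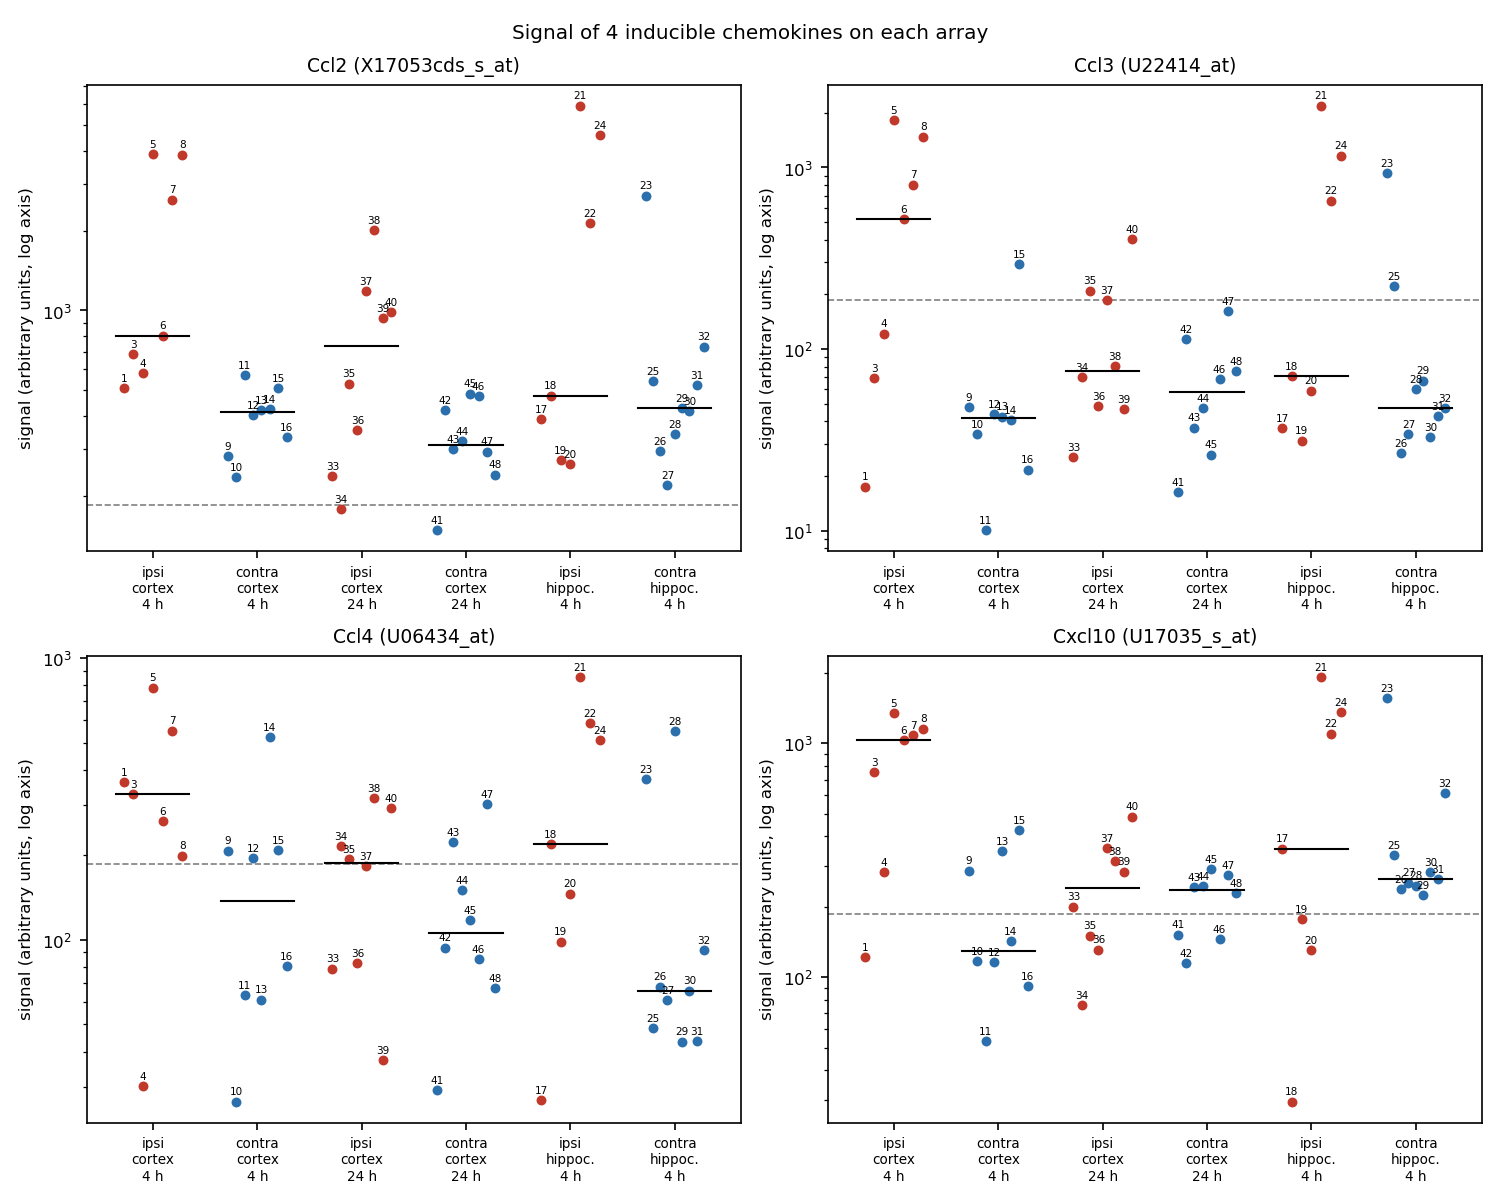
Signal (arbitrary units, log axis) of Ccl2, Ccl3, Ccl4 and Cxcl10 on each array in the 6 groups. Points are arrays with their numbers, red ipsilateral and blue contralateral, bars are group medians and the dashed line is the floor of 185.8; ipsilateral cortical arrays 5, 7 and 8 and ipsilateral hippocampal arrays 21, 22 and 24 stand high for Ccl2, Ccl3 and Cxcl10, and so does array 23 among the contralateral hippocampal ones.

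Cx3cl1 in cortex at 4 h ran from 44985 through 51378 to 70120 ipsilaterally and from 40632 through 55150 to 61875 contralaterally for rc_AA800602_s_at. The groups overlapped, with ipsilateral array 4 above and contralateral array 10 below all others. The difference was -0.0027 (SE 0.090, 95% interval -0.18 to 0.18; adjusted p 0.999 in limma), and 0.027 under quantile normalization. AF030358_at differed by -0.12 (SE 0.093) and AF030358_g_at by 0.017 (SE 0.11), neither past the threshold. The intervals of the 3 probe sets together reached from -0.31 to 0.25.

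Of the markers of blood and of leukocytes, the erythroid ones had their highest sums on arrays 5, 7 and 8. Those of leukocytes followed these arrays only in part. The 3 erythroid markers (Hbb, Alas2 and Slc4a1) summed to 33032 to 98166 ipsilaterally and 35763 to 53650 contralaterally, and were at 98166, 74660 and 81208 on arrays 5, 7 and 8; 2 of the 3 were higher ipsilaterally and none passed. All 4 neutrophil markers (S100a8, S100a9, Cxcr2 and Defa5) were higher ipsilaterally and none passed; they summed to 731 to 1322 against 258 to 1219. They were above the floor on 14, 18, 21 and 7 of the 47 arrays. Of 12 microglia and macrophage markers 9 were higher and none passed, with sums of 14603 to 18860 against 13324 to 16076. On arrays 5, 7 and 8 the neutrophil sums were 900, 927 and 1243, beside an ipsilateral median of 900. The microglia and macrophage sums there were 18860, 16785 and 18707, beside a median of 16785. Of 6 lymphocyte markers 3 were higher and none passed. Their part in the chemokine values was not tested.

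By 24 h the cortical signals of Ccl3 and Cxcl10 had come down on the ipsilateral side, while Ccl2 stayed high on several arrays. Of the 8 probe sets, 4 passed in ipsilateral cortex at 24 h against 4 h, and all 4 fell: Ccl3, Cxcl10 and the Cx3cl1 probe sets AF030358_at and rc_AA800602_s_at. Of all probe sets 19.3% were called and 7.92% fell. In contralateral cortex the same comparison called 1 of 8, Cx3cl1 AF030358_at, beside 21.5% of all called and 8.25% that fell. The 2 time comparisons do not share arrays.

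Cxcl10 ran from 76.3 through 242 to 486 on the 8 ipsilateral arrays at 24 h, all below the median of 4 h. It fell by 1.40 (SE 0.43; 2.64-fold; limma adjusted p 0.0159) and passed when any 1 of the 15 arrays was left out. With each array's 10th percentile of signal as a covariate its fall was 1.12 and its adjusted p 0.0501. Contralaterally it ran from 115 through 236 to 290 at 24 h, a difference of -0.053 (adjusted p 0.950). The change of the side difference with time was -1.35 (SE 0.60; unadjusted p 0.0293, adjusted p 0.880), so the larger fall ipsilaterally did not pass a test of its own. That interaction called 0 of 8 probe sets and 0% of all, with 421 of 7503 (5.61%) at an unadjusted p under 0.05 and Cxcl10 the 1 member among them.

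Ccl3 fell by 1.25 (SE 0.43; adjusted p 0.0344 in limma), from 518 to 75.3 in median signal. At 24 h it was above the floor on arrays 35, 37 and 40 only, at 210, 186 and 403, and none of the 8 exceeded the median of 4 h. This call is weak. It was lost when any of 9 of the 15 arrays was left out (arrays 5 to 8, 33 and 36 to 39), with adjusted p between 0.0127 and 0.128 over the 15, and under 6 of the 8 other settings. Contralaterally Ccl3 was under the floor on all 8 arrays at 24 h, with a highest signal of 162.

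Ccl4 differed by -0.65 (SE 0.29; adjusted p 0.118) and did not pass. Ccl2 differed by -1.10 (SE 0.56; adjusted p 0.174) for X17053cds_s_at and by -0.56 (SE 0.68; adjusted p 0.621) for X17053mRNA_s_at in the same limma comparison. Their signals at 24 h overlapped those at 4 h widely.

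The side comparison in cortex at 24 h called none of the 8 probe sets and 0.107% of all. At an unadjusted p under 0.05 it counted 2 of 8, beside 575 of 7503 (7.66%). One of the 2 was Ccl2 X17053mRNA_s_at, which ran from 120 through 1005 to 2156 ipsilaterally and from 37.2 through 164 to 270.1 contralaterally. Arrays 37 to 40 were at 2156, 1835, 1801 and 1439, arrays 35 and 36 at 571 and 394, and arrays 33 and 34 within the contralateral range; 0.72% of all probe sets had 6 or more arrays above. The difference was 1.90 (SE 0.66; 3.72-fold; adjusted p 0.351 in limma). X17053cds_s_at ran from 179 through 733 to 2008 ipsilaterally and from 149 through 310.4 to 486 contralaterally, a difference of 0.90 (SE 0.54), with 5 of 8 arrays above every contralateral one, as for 2.8% of all probe sets.

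Ccl3, Ccl4 and Cxcl10 differed by 0.16, 0.092 and 0.19 between sides at 24 h, none past the threshold. With the floor at the 10th percentile they differed by 0.52, 0.36 and 0.094. Cxcl10 arrays 37, 38 and 40 lay above the highest contralateral signal of 290.5, at 356, 313 and 486; 11.8% of all probe sets had 3 or more such arrays. On arrays 37 to 40 the 12 microglia and macrophage markers summed to 23978, 30931, 24166 and 23261, above the contralateral range of 10049 to 16909. All 12 were higher ipsilaterally, with a median difference of 0.42, and none passed. Their part in the Ccl2 and Cxcl10 values was not tested.

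In hippocampus at 4 h, a gap divided the ipsilateral arrays, with the later-numbered ones above it. Ccl2 X17053cds_s_at was 5908, 2128 and 4590.2 on arrays 21, 22 and 24, and 389, 478, 273 and 264 on arrays 17 to 20. The contralateral arrays ran from 219 to 730.1, except for array 23 at 2708. X17053mRNA_s_at was 8786, 2002 and 6511 on the first 3 and 22.7 to 220 on the others, against 64.2 to 696 contralaterally and 2959 on array 23. The high arrays thus lay far above the rest on both Ccl2 probe sets. Ccl3 stood at 2189, 658 and 1163 on arrays 21, 22 and 24 and under the floor on arrays 17 to 20. Its contralateral signals were 26.6 to 222 apart from 932 on array 23.

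Cxcl10 in ipsilateral hippocampus was 1919, 1100 and 1358 on arrays 21, 22 and 24, 355 on array 17 and under the floor, at 29.4 to 178, on arrays 18 to 20. Contralaterally it ran from 224 to 614 and was 1560.3 on array 23. Ccl4 was 854, 585 and 512 on arrays 21, 22 and 24 and 26.8 to 218 on the others, against 43.4 to 550.5 contralaterally, where array 28 was highest and array 23 next at 370.3. The same 3 arrays thus held the 3 highest places of their group for all 4 genes.

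The hippocampal side comparison called 0 of the 8 probe sets and 16.1% of all. At an unadjusted p under 0.05 it counted Ccl3 alone, beside 2366 of 7503 (31.5%). All 8 were higher ipsilaterally, with a median difference of 0.49, beside 44.8% higher and a median of -0.038 over all probe sets. The difference was 0.93 (SE 0.55) for Ccl2 X17053cds_s_at, 0.63 (SE 0.66) for X17053mRNA_s_at, 0.86 (SE 0.42) for Ccl3, 0.51 (SE 0.29) for Ccl4 and 0.48 (SE 0.42) for Cxcl10. Without array 23 these became 1.23 (adjusted p 0.109), 0.95 (0.332), 1.12 (0.0551), 0.60 (0.154) and 0.74 (0.204), still short of the threshold in limma. Without array 21 they were 0.49, 0.048, 0.46, 0.27 and 0.15, the lowest of the 16 omissions for each. With the floor at the 10th percentile they were 0.93, 0.20, 1.26, 1.29 and 0.14, and with no floor X17053mRNA_s_at and Cxcl10 were at 0.30 and 0.17.

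The 10th percentile of signal was 44 ± 6.9 (SD, n = 7) on ipsilateral and 64.8 ± 16 (SD, n = 9) on contralateral hippocampal arrays. With it as a covariate, probe sets called in this comparison went from 1207 to 5 and the members remained uncalled, with 1.65 for Ccl2 X17053cds_s_at and 1.10 for Cxcl10. Microglia and macrophage markers summed to 17056, 15883 and 17047 on arrays 21, 22 and 24, to 11392, 11953, 11565 and 11004 on arrays 17 to 20, and to 11938 to 16487 contralaterally. They were thus higher on the 3 arrays with high chemokine signals than on the other 4. Of the 12, 7 were higher ipsilaterally, none rose and C1qc fell. Of the 4 neutrophil markers 2 were higher and none passed, and their sums of 220 to 811 ipsilaterally lay below the contralateral maximum of 846. The part of these markers in the chemokine values was not tested.

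**Figure D2:**
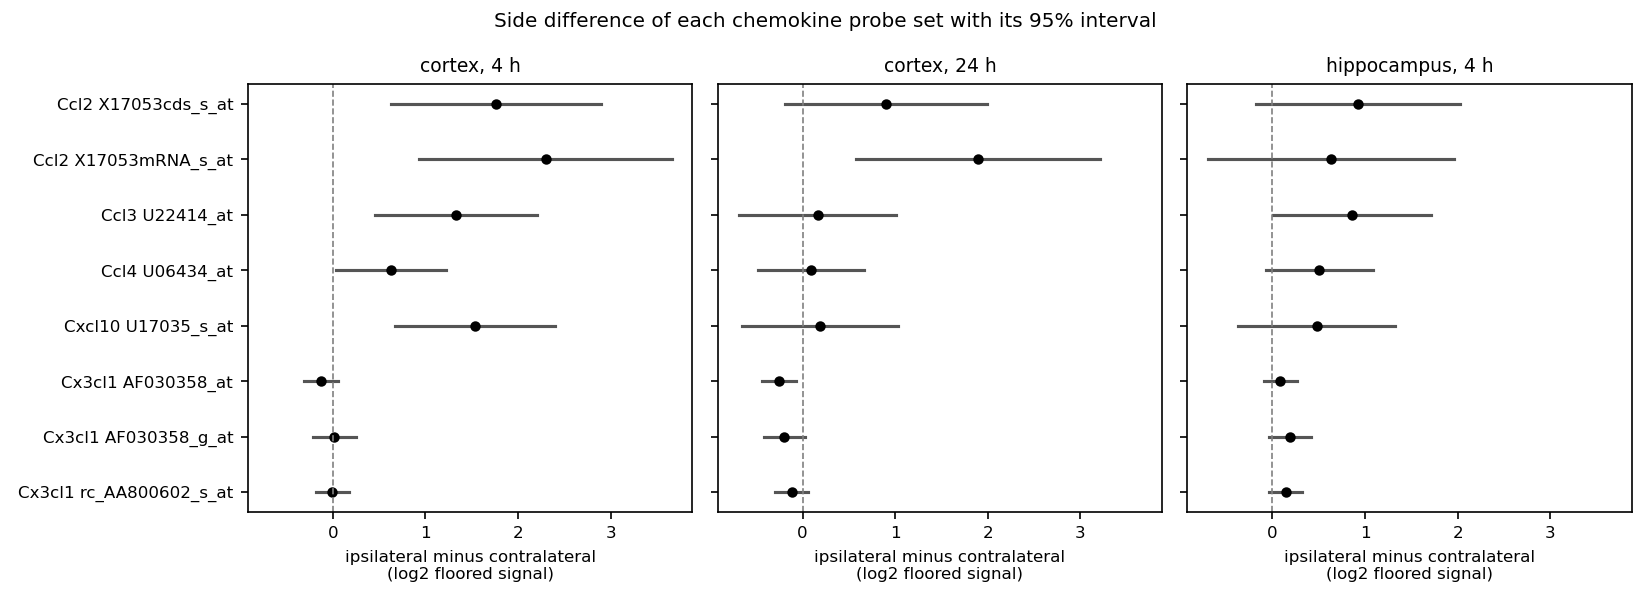
Ipsilateral minus contralateral difference (log2 floored signal, x axis) of the 8 probe sets in cortex at 4 h, cortex at 24 h and hippocampus at 4 h, on 1 scale. Points are limma estimates and lines their 95% intervals, before any adjustment; the intervals of the inducible chemokines are several times as wide as those of Cx3cl1.

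Whether the side difference differed between regions was tested directly at 4 h. The hippocampal minus cortical side difference was -0.84 for Ccl2 X17053cds_s_at, -1.67 for X17053mRNA_s_at, -0.47 for Ccl3, -0.12 for Ccl4 and -1.06 for Cxcl10, and no member passed (adjusted p 0.314 to 0.900), beside 4.18% of all probe sets called. Without array 23 these were -0.54, -1.35, -0.22, -0.030 and -0.80. Cx3cl1 AF030358_at, AF030358_g_at and rc_AA800602_s_at gave 0.21, 0.17 and 0.15 (0.24, 0.084 and 0.17 without array 23), and none passed. None of the 8 had an unadjusted p under 0.05, beside 1585 of 7503 (21.1%).

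The spread between arrays was itself compared, by a limma fit to absolute deviations from the group mean. In cortex at 4 h Ccl3 had an SD of 1.44 ipsilaterally and 0.23 contralaterally (log2, n = 7 and 8; adjusted p 0.00309) and Ccl2 X17053cds_s_at of 1.32 and 0.43 (adjusted p 0.0486). These were 2 of 8 probe sets called, beside 2.52% of all called and 1.35% wider ipsilaterally. Ccl3's contralateral SD came from 1 array above the floor and the others set to it. Ccl2's call was lost without any of 10 of the 15 arrays, and at the floor of the 10th percentile (adjusted p 0.0760) and with no floor (0.0933), while that of Ccl3 stood in all 15 and was lost with no floor (adjusted p 0.0586).

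In hippocampus 4 of 8 probe sets were called wider ipsilaterally, beside 3.88% of all called and 0.92% wider. The SDs were 2.57 against 1.15 for Ccl2 X17053mRNA_s_at (adjusted p 0.000662), 1.95 against 1.04 for X17053cds_s_at (0.00526), 1.52 against 0.77 for Ccl3 (0.00869) and 1.5 against 0.92 for Cxcl10 (0.0353), all in limma. Array 23 is the highest contralateral array for all 4, so leaving it out narrows the contralateral SDs and is no test of these calls. Without it the adjusted p in limma were 2.67e-05, 4.93e-05, 2.08e-05 and 0.000127. For Ccl3 only array 25 was then above the floor on the contralateral side. X17053mRNA_s_at was called in each of 16 omissions of 1 array and with no floor. X17053cds_s_at and Ccl3 were lost without array 21 or 24. Cxcl10 was lost without any of 10 arrays (21, 22 and 24 to 31), and with no floor only X17053mRNA_s_at of the 4 passed. At the floor of the 10th percentile Ccl3 and Cxcl10 did not pass (adjusted p 0.0674 and 0.0688 in limma), nor did Cxcl10 under quantile normalization (0.0699).

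The ipsilateral SDs of Ccl2 and Ccl3 in hippocampus lay above those of at least 99.89% of all probe sets tested, and that of Cxcl10 above 99.88%. Such ranks were not particular to that group. In ipsilateral cortex at 4 h the shares were 99.88% and 99.95% for Ccl2, 99.89% for Ccl3 and 99.6% for Cxcl10. In contralateral hippocampus they were, in the same order, 99.72% and 99.87%, 96.72% and 99.27%. In ipsilateral cortex at 24 h they were 99.77% and 99.89%, 80.38% and 91.78%. In contralateral cortex none of them exceeded 88.87% at either time. In cortex at 24 h no member's spread was called, beside 0.347% of all. Ccl2 X17053mRNA_s_at had SDs of 1.42 and 0.23 there (adjusted p 0.0854 in limma). Cx3cl1 SDs lay between 0.11 and 0.35 in every group and probe set, and none of its 9 spread comparisons passed.

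**Figure D3:**
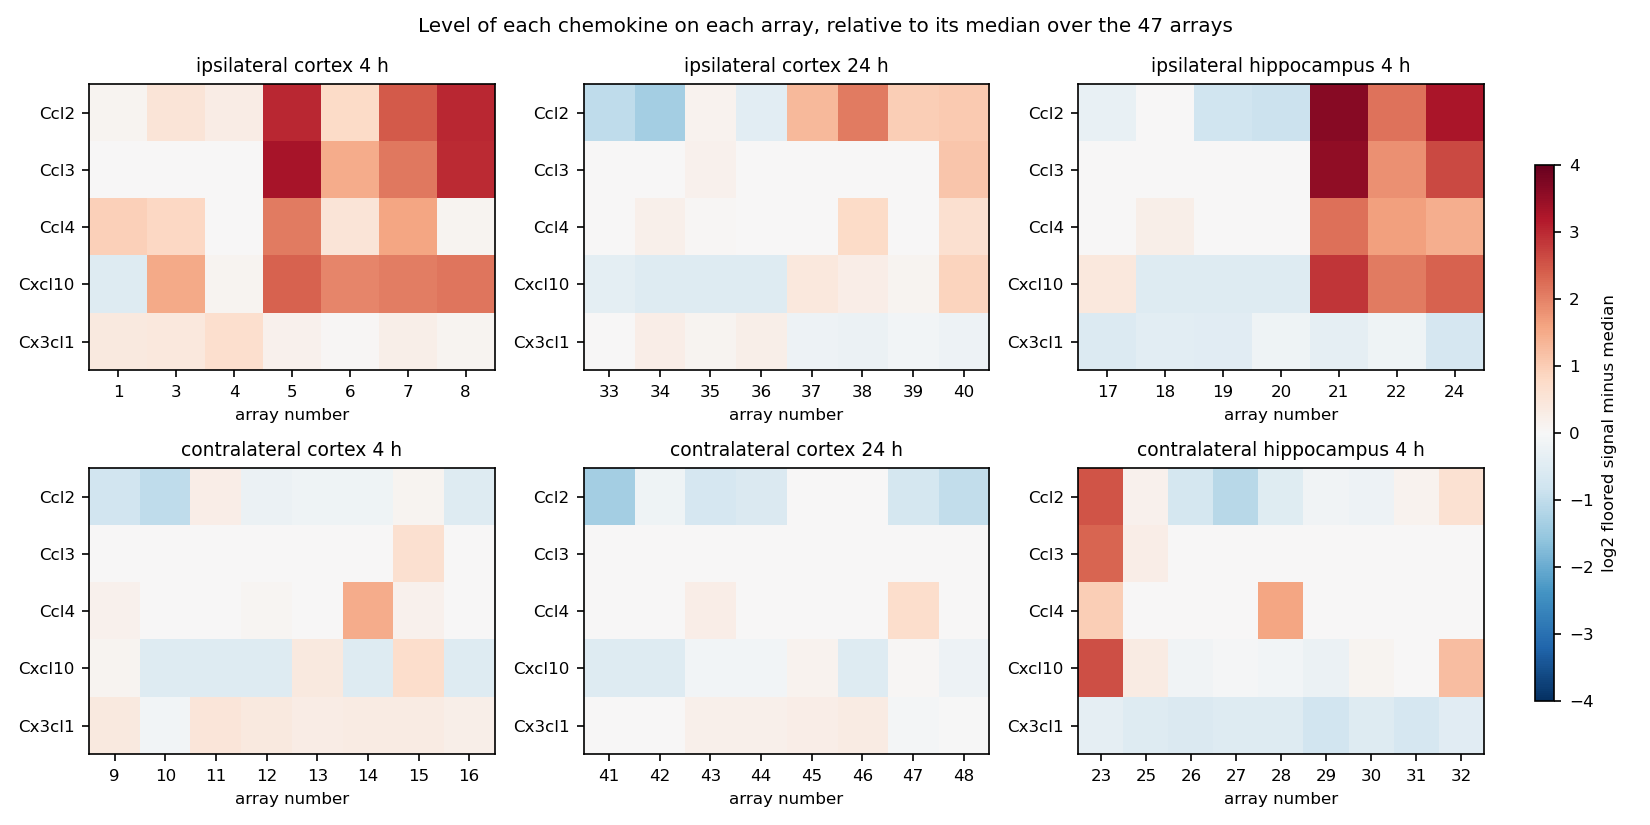
Log2 floored signal of each of the 5 genes (its probe set with the highest mean) on each array, minus that gene's median over the 47 arrays, by group; red is above and blue below the median. Arrays 5, 7 and 8, arrays 21, 22 and 24, and array 23 are red for Ccl2, Ccl3 and Cxcl10, while the Cx3cl1 row is blue in hippocampus. The medians of Ccl3 and Ccl4 lie at the floor, so their arrays at the floor show no colour.

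The 4 inducible chemokines tended to be high on the same arrays. Arrays 5 and 7 in cortex at 4 h and array 40 in ipsilateral cortex at 24 h were among the 3 highest of their group for all 4 genes, as were arrays 21, 22 and 24 in ipsilateral hippocampus. So were arrays 15 and 23 on the contralateral side. For Ccl2 and Cxcl10 the high arrays of each ipsilateral group were those numbered later. Ccl2 X17053cds_s_at was 803 to 3883 on arrays 5 to 8 and 510 to 685 on arrays 1, 3 and 4. At 24 h it was 936 to 2008 on arrays 37 to 40 and 179 to 530 on arrays 33 to 36. In contralateral cortex earlier and later arrays overlapped for both genes. Ccl3 split so at 4 h only and Ccl4 in hippocampus only. What the numbering reflects was not tested. Across the 47 arrays Spearman's rho was 0.72 between Ccl2 and Ccl3, 0.70 between Ccl2 and Cxcl10, 0.70 between Ccl3 and Cxcl10, and 0.44 to 0.55 for the 3 pairs with Ccl4. After group means were taken off, the first 3 were 0.71, 0.80 and 0.76. With Cx3cl1 the 4 gave -0.21 to 0.11. These describe arrays that share their group, RNA and scaling, and many low values tied at the floor. Once group means were taken off, arrays at the floor were ordered by their group's mean. The values after that step therefore still carry group differences.

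Ordered by mean log2 level, ipsilateral cortex at 4 h was highest and ipsilateral hippocampus next for all 4 inducible genes (Ccl2 by X17053cds_s_at), and contralateral cortex at 24 h was lowest with the floor used here. The last place was not settled for Cxcl10 and Ccl3: at the floor of the 10th percentile their contralateral differences over time were 0.35 and 0.14. The median Cxcl10 signal of contralateral cortex was 236 at 24 h and 130 at 4 h. Mean levels of Ccl2 X17053cds_s_at went from 10.35 ± 1.32 through 9.91 ± 1.95 (ipsilateral hippocampus), 9.24 ± 1.2 (ipsilateral cortex at 24 h), 8.99 ± 1.04 (contralateral hippocampus) and 8.58 ± 0.43 (contralateral cortex at 4 h) to 8.34 ± 0.49 (SD, n = 7, 7, 8, 9, 8 and 8). Those of Cxcl10 went from 9.41 ± 1.12 through 8.93 ± 1.5 and 8.45 ± 0.92 (contralateral hippocampus) to 8.01 ± 0.53, 7.88 ± 0.49 and 7.82 ± 0.26 in ipsilateral cortex at 24 h and contralateral cortex at 4 h and 24 h. No neighbours in these orders, nor in those of Ccl3 and Ccl4, were farther apart than the larger of their SDs.

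Cx3cl1 had a regional pattern. In contralateral brain at 4 h all 3 of its probe sets were lower in hippocampus than in cortex and passed, 3 of the 8 members, beside 33.7% of all probe sets called and 11.4% called lower. For rc_AA800602_s_at the 9 hippocampal arrays ran from 25902 through 30399.9 to 33875 and the 8 cortical arrays from 40632 through 55150 to 61875. The groups did not overlap, as for 5.74% of all probe sets. It fell by 0.84 (SE 0.084; 1.79-fold; limma adjusted p 2.84e-11).

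AF030358_at ran from 16984 through 20801 to 22905 in hippocampus and from 34328 through 42377 to 53703 in cortex, again with no overlap. It fell by 1.10 (SE 0.087; adjusted p 2.00e-14 in limma). AF030358_g_at ran from 10644 through 17866 to 23602 and from 22783 through 26099 to 29517, with 8 of 9 hippocampal arrays below every cortical one (4.54% of all). It fell by 0.58 (SE 0.11; adjusted p 3.21e-05), and by 0.49 without array 23, its lowest. Without that array AF030358_at fell by 1.12 and rc_AA800602_s_at by 0.86. All 3 calls stood in each of 17 omissions of 1 array and under each of the 8 other settings. The inducible chemokines did not pass in this comparison: Ccl2 X17053mRNA_s_at differed by 1.14 (SE 0.64; adjusted p 0.171), or 0.82 without array 23 (0.340), and passed when limma was fitted to the compared groups alone (0.0342). Ccl2 X17053cds_s_at and Cxcl10 differed by 0.40 and 0.57 (0.10 and 0.31 without array 23), and Ccl3 and Ccl4 by 0.21 and 0.050, which became -0.049 and -0.043 without array 23. Under quantile normalization Ccl4 was at -0.021.

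**Figure D4:**
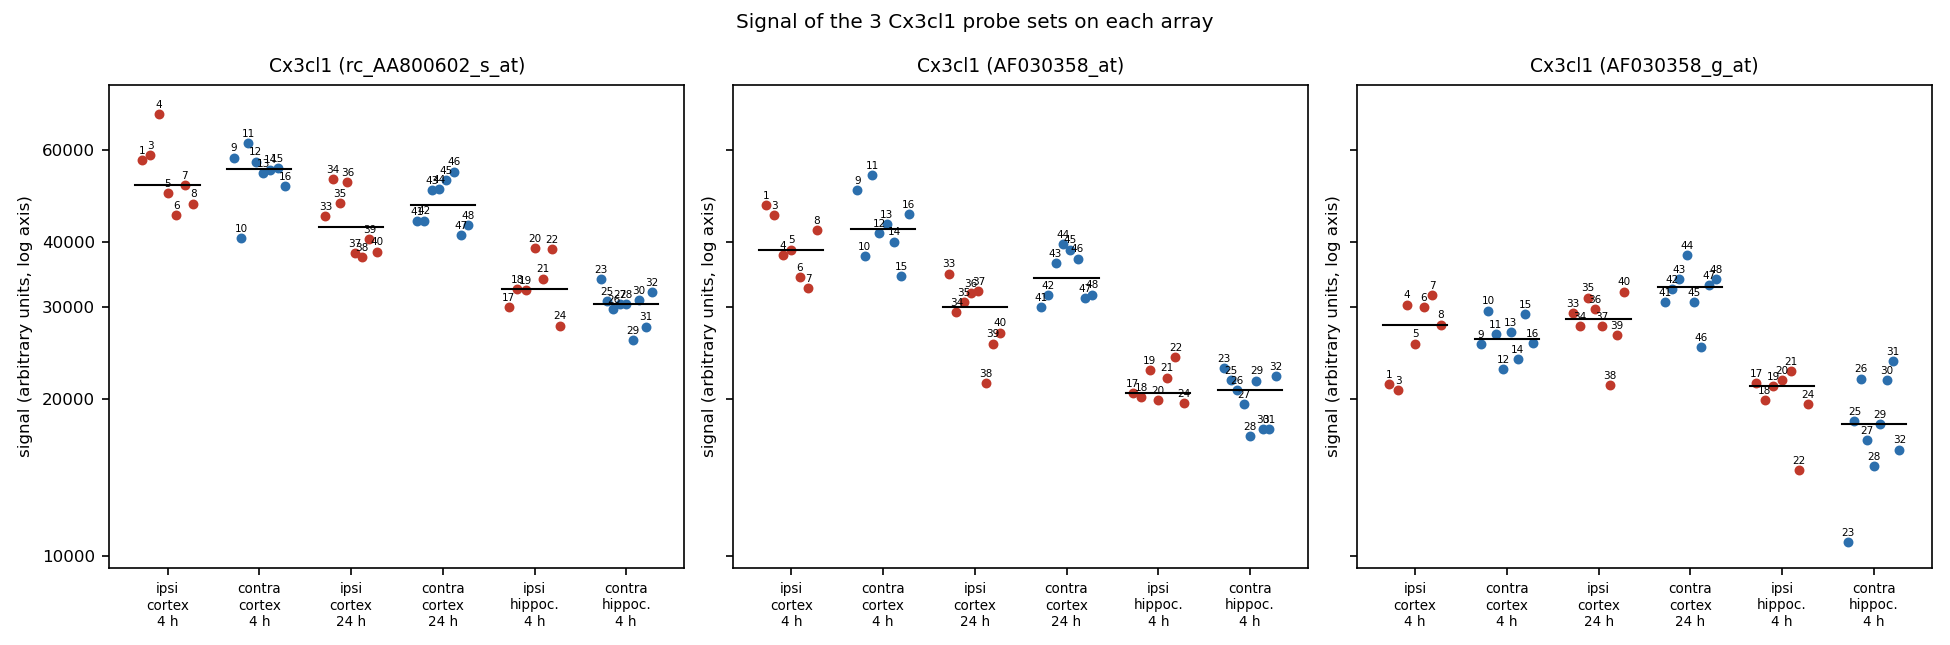
Signal (arbitrary units, log axis) of the 3 Cx3cl1 probe sets on each array in the 6 groups, with array numbers, red ipsilateral and blue contralateral, and bars at group medians. Hippocampal group medians lie below cortical ones, but single arrays overlap. For rc_AA800602_s_at ipsilateral hippocampal array 20 is at 38859 and ipsilateral cortical array 38 of 24 h at 37418. The contralateral groups at 4 h run from 25902 to 33875 and from 40632 to 61875 for that probe set, without overlap.

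Over time in cortex the Cx3cl1 probe sets disagreed. Ipsilaterally AF030358_at ran from 21417 through 29946 to 34749 at 24 h against 32561, 38632 and 46997 at 4 h, with 7 of 8 arrays below every array of 4 h, as for 3.27% of all probe sets. It fell by 0.45 (SE 0.093; limma adjusted p 0.000376). rc_AA800602_s_at fell by 0.30 (SE 0.090; adjusted p 0.0124), with 5 of 8 arrays below (7.28% of all), but not past the threshold without array 4 (0.0502), in a fit to the compared groups alone (0.0545) or under quantile normalization (-0.11, adjusted p 0.430). AF030358_g_at differed by 0.080 (SE 0.11; adjusted p 0.685).

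Contralaterally AF030358_at fell by 0.32 (SE 0.089; limma adjusted p 0.00734), from a median of 42377 to 34016, which under quantile normalization was -0.16 (adjusted p 0.220). AF030358_g_at went the other way, from a median of 26099 to 32758 with 7 of 8 arrays above every array of 4 h (4.65% of all), by 0.29 (SE 0.11; adjusted p 0.0511). It passed under 4 of the 8 other settings and without array 10, 15 or 46. rc_AA800602_s_at differed by -0.19 (adjusted p 0.121), passed without array 10 (0.0311), and was at 0.022 under quantile normalization. No one direction holds for the gene over time contralaterally. Spearman's rho over the 47 arrays was 0.88 between AF030358_at and rc_AA800602_s_at but 0.47 and 0.48 with AF030358_g_at.

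Between sides at 24 h AF030358_at differed by -0.26 (SE 0.089; unadjusted p 0.00635, adjusted p 0.358 in limma), with 4 of 8 ipsilateral arrays below every contralateral one, as for 5.21% of all probe sets. AF030358_g_at and rc_AA800602_s_at differed by -0.20 and -0.12. In hippocampus the 3 differed by 0.087, 0.19 and 0.14 (0.11, 0.10 and 0.16 without array 23), and none passed. Ordered by level, cortical groups lay above hippocampal groups for every probe set, and the step between the lowest cortical and the higher hippocampal group (0.44, 0.39 and 0.39) exceeded the larger SD. In AF030358_at the step from contralateral to ipsilateral cortex at 24 h (0.26) also did, and in AF030358_g_at the same step (0.20).

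The genes whose levels followed each member most closely over the 47 arrays were named by the 3 highest Spearman correlations. For Ccl2 they were Anxa2 (rho 0.74, and 0.77 after group means were taken off), Hmox1 (0.74 and 0.72) and Fn1 (0.70 and 0.58). For Ccl3 they were Il1b (0.70 and 0.90), Il6r (0.67 and 0.54) and Cebpd (0.65 and 0.71). For Ccl4 they were Il1b (0.53 and 0.57), Lyz2 (0.51 and 0.45) and C3 (0.51 and 0.50). For Cxcl10 they were Il1b by another of its probe sets (0.71 and 0.76), Icam1 (0.69 and 0.52) and Timp1 (0.66 and 0.70). Those of Cx3cl1 were 2 probe sets of Camk2n1 (0.91 and 0.90, or 0.61 and 0.56 after group means) and Cabp1 (0.90 and 0.58). Il1b for Ccl3 and Ccl4 was above the floor on 14 arrays, Cebpd on 15 and C3 on 9, so ties at the floor enter these values. After group means were taken off, such ties were ordered by group mean, so those values still carry group differences. The Cebpd differences given below are of another probe set than the one here. The Il1b differences below are of the probe set named here for Cxcl10.

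Of the other chemokines and their receptors, 6 and 9 were tested. In cortex at 4 h none of either list passed, the smallest p being that of Ccl20 (0.39, SE 0.19) and the decoy receptor Ackr2 (-0.45, SE 0.21). None passed in cortex at 24 h, where Cxcl6 (-0.46, SE 0.26) and Ackr3 (0.51, SE 0.35) had the smallest p. In hippocampus the neutrophil attractant Cxcl6 fell by 1.12 (SE 0.26; limma adjusted p 0.00403), and so did Ccr1, a receptor of Ccl3, by 0.60 (SE 0.16) and Cxcr4, the receptor of Cxcl12, by 0.54 (SE 0.14). These were 3 of 15 genes, beside 16.1% of all probe sets called, and list medians were -0.14 and -0.20, beside -0.038. In the limma fit that included each array's 10th percentile, none of the 9 genes named from the lists in this comparison passed.

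Over time in ipsilateral cortex Cx3cr1, the receptor of Cx3cl1, rose by 0.74 (SE 0.27; limma adjusted p 0.0485), Ackr2 rose by 0.74 (SE 0.21), and Mif fell by 0.27 (SE 0.063), 3 of 15 genes of the 2 lists beside 19.3% of all probe sets called. The call of Cx3cr1 was lost under 5 of the 8 other settings. Contralaterally Mif fell by 0.31 and Ccr3 by 0.47, Cxcl6 rose by 0.71, again 3 of 15, beside 21.5% of all called (the call of Cxcl6 was lost under 4 of the 8), and Cx3cr1 differed by 0.43 (SE 0.26; adjusted p 0.266). Adam10, which can cut Cx3cl1 from the cell surface, rose by 0.61 (SE 0.13) ipsilaterally and 0.48 (SE 0.13) contralaterally. It was the 1 call among 14 leukocyte recruitment genes ipsilaterally and 1 of 3 contralaterally, beside 19.3% and 21.5% of all probe sets. Adam17, the other protease named above, was tested and passed in neither. In contralateral hippocampus against cortex Cxcl6 and Cxcr4 rose by 1.06 and 0.67, Mif and Ccr3 fell by 0.36 and 0.43, and Adam10 rose by 0.40. Of all probe sets 33.7% were called there.

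Of the inducing cytokines and their receptors, 11 were tested. No member passed in the 3 side comparisons, where the smallest p belonged to Tgfb1 in cortex at 4 h (1.26, SE 0.32; limma adjusted p 0.149), Ifngr1 at 24 h (0.35, SE 0.18) and Il1r1 in hippocampus (-0.28, SE 0.14). Il1b, a main inducer of these chemokines, differed by 0.70 (SE 0.33) in cortex at 4 h, by -0.39 at 24 h and by -0.30 in hippocampus. The list's medians were -0.011, -0.0065 and -0.28. The 1 member called over time was Il18, which rose by 0.63 in contralateral cortex.

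Of 18 NF-kB and interferon signalling genes none passed in cortex at 4 h or 24 h, with medians of 0.15 and 0.11; Irf7 (-0.52, SE 0.18) and Stat3 (0.59, SE 0.26) had the smallest p. In hippocampus Cebpd and Oas1a fell by 1.14 and 0.61 and Jak1 and Jun rose by 0.33 and 0.38, 4 of 18 beside 16.1% of all; the call of Jun was lost under 6 of the 8 other settings. From 4 h to 24 h in ipsilateral cortex the NF-kB inhibitor Nfkbia fell by 0.74 (SE 0.20; limma adjusted p 0.00538) and Cebpb by 1.14 (SE 0.29), while Stat3 and Jak1 rose by 1.18 and 0.61. Thus 2 of the 18 fell and 2 rose, beside 19.3% of all probe sets called. Contralaterally Cebpb fell by 1.04, and Stat3 and Jak1 rose by 0.81 and 0.31, so that 1 of the 18 fell and 2 rose, beside 21.5% of all called. Between contralateral regions 7 of the 18 passed, beside 33.7% of all probe sets. Cebpb, Cebpd, Stat3, Mx1 and Irf1 rose in hippocampus against cortex by 1.04, 0.79, 0.78, 0.70 and 0.49, and Mx2 and Fos fell by 1.17 and 0.46. The call of Irf1 was lost under 5 of the 8 other settings.

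Of 14 leukocyte recruitment genes none passed in cortex at 4 h, where Icam1, the endothelial ligand that holds leukocytes, had the smallest p (1.22, SE 0.28; limma adjusted p 0.134). At 24 h Spp1 (osteopontin) rose by 2.59 (SE 0.58; adjusted p 0.0498), a call lost under 4 of the 8 other settings, with no probe set of the array called under 3 of them. In hippocampus Icam2 and Vcam1 fell by 0.47 and 0.44, 2 of 14 beside 16.1% of all probe sets called, and the call of Icam2 was lost under 5 of the 8. The hippocampal minus cortical side difference was -1.36 for Icam1 (SE 0.39; adjusted p 0.0386), -1.34 for Cxcl6 and -1.43 for Cebpd, all past the threshold. That test called 314 probe sets, 64 when fitted to the compared groups alone and 1 with the 10th percentile as a covariate. In the compared groups Icam1 and Cxcl6 did not pass (adjusted p 0.0880 and 0.0992 in limma), and with the covariate none of the 3 did. Of 45 calls of list genes in the 8 comparisons, 17 stood under all 8 other settings. Over time in contralateral cortex Vcam1 and Itgb1 rose by 0.46 and 0.45, and in contralateral hippocampus against cortex by 0.42 and 0.44. With Adam10, 3 of the 14 rose in each of these comparisons, beside 21.5% and 33.7% of all probe sets called.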

How the data were processed

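Intensities were kept as deposited by the authors: 1 linear signal per probe set for 47 oligonucleotide arrays of Trizol-extracted total RNA, per the labels. How probe signals were summarised, and to what target they were scaled, is not given in the sources used here. Trimmed means (2%) differed by less than the 5% tolerance, and no further scaling was done. Signals below the floor, the 25th percentile, were raised to it before log2 was taken. Probe sets above this floor on at least 7 arrays were tested, without 59 control probe sets. Symbols came from the platform annotation, updated by gene identifier (7018 probe sets with 1 symbol, 308 with several, 1473 with none).

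Groups came from the labels (side, region, hours). R 4.3.3 with limma 3.58.1 and the data.table package 1.17.8 fitted 6 group means over all 47 arrays (eBayes with an intensity trend, two-sided), with Benjamini-Hochberg adjustment across 7503 probe sets for each of 8 contrasts at a threshold of 0.05. Spread was compared by limma on absolute deviations from group means, scaled for group size, without trend, in 3 comparisons. The procedure was tested on simulated data. Named genes were all member probe sets, list genes past the threshold, each list's smallest p in the side comparisons and each member's 3 closest correlates; the side differences of Il1b were added after their values were seen. The listed marker Spi1 matched only a former symbol of another gene and was left out; lists hold each gene's probe set of highest mean. Of the listed genes, 10 other chemokines, 10 receptors, 15 cytokine, 18 signalling and 14 recruitment genes were on the array. Alternatives were other floors, a pseudocount of 50, no filter, quantile normalization, fits to the compared groups, array weights, no trend, the 10th percentile as a covariate and leaving out each array. The members and lists were chosen with earlier results of these data known. The sample numbers are those of Trizol extractions and do not name animals. Samples of the same animal could not be matched, so no block was used.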

Additional observations from a re-analysis of the deposited data

Results flagged for a closer look

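Of 47 combinations of a probe set and a group that could be tested for a sample far from the others, 11 had one. The cut-offs give about 1 in 20 by chance for normally distributed values, which signals set to a floor are not. A group with 1 array above the floor is always flagged, so the count cannot be held against that rate. The figure given for each is the gap from that array to its nearest neighbour as a share of the group's whole log2 range. In contralateral hippocampus array 23 was highest for Ccl2 X17053cds_s_at (0.521; 2708 against 730.1 next), for X17053mRNA_s_at (0.523; 2959 against 696) and for Ccl3 (0.889; 932 against 222). In contralateral cortex at 4 h array 15 was highest for Ccl2 X17053mRNA_s_at (0.626; 523 against 274) and for Ccl3 (1; 292 against 47.8, where all other arrays were set to the floor). In the same group array 14 was highest for Ccl4 (0.894; 524 against 207) and array 10 lowest for Cx3cl1 rc_AA800602_s_at (0.543; 40632 against 51049). Array 40 was highest for Ccl3 in ipsilateral cortex at 24 h (0.842; 403 against 210), and array 47 for Ccl4 in contralateral cortex at 24 h (0.638; 303 against 222). Cx3cl1 AF030358_g_at was lowest on array 38 in ipsilateral cortex at 24 h (0.532; 21229 against 26453) and on array 22 in ipsilateral hippocampus (0.668; 14618 against 19545). Of the 11, 5 belong to arrays 23 and 15, all of them for Ccl2 or Ccl3. Both arrays were also among the 3 highest of their group for Ccl4 and Cxcl10, for which they were not flagged.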

How the results depend on the processing

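The direction and side of the threshold of member values were kept in 562 of 608 comparisons with the 8 other settings and 1551 of 1632 with 1 array left out. Counts of all probe sets called moved as follows. The cortical side comparison at 4 h (0) gave 5 at the 10th-percentile floor, 3 with no floor, 1 with quantile normalization, 1 without trend and 2 with the 10th percentile as covariate. At 24 h (8) it gave 0 with no filter, 0 fitted to the compared groups, 0 without trend, 38 with array weights and 13 with the covariate. The hippocampal one (1207) gave 1881 with weights and 5 with the covariate, the side-by-region test (314) gave 64 in the compared groups and 1 with the covariate, and the side-by-time test (0) gave 1 at the 10th-percentile floor. Spread calls were 27 with no floor and 676 with no filter in cortex at 4 h (189), 13 with no floor at 24 h (26), and 120 at the lower floor, 6 with no floor and 528 with no filter in hippocampus (291).

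Member counts moved in spread at 4 h (2) to 1 at the lower floor and 0 with no floor, and in hippocampus (4) to 2 and 1. Over time, the contralateral count (1) was 2 with no floor, in the compared groups and with weights, and the ipsilateral count (4) was 2 in the compared groups and with the covariate. With 1 array left out, counts of all probe sets ranged from 0 to 2 in the side comparison at 4 h, from 0 to 26 at 24 h, from 134 to 506 by region and from 19 to 45 in spread at 24 h. Member counts ranged from 1 to 3 in spread at 4 h, from 0 to 1 at 24 h, from 1 to 4 in hippocampus and from 1 to 3 over contralateral time.

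No reversed value had passed the test. At the lower floor and with no floor, contralateral time differences were 0.14 and 0.15 for Ccl3 and 0.35 and 0.23 for Cxcl10 (0.10 with the covariate). Ccl4 gave 0.15 and 0.050 for the side-by-region difference (0.30 with the covariate), -0.40 and -0.24 between regions (-0.021 with quantile normalization, -0.087 with the covariate) and -0.14 and -0.023 in spread at 4 h. Quantile normalization gave Cx3cl1 rc_AA800602_s_at 0.027 between sides at 4 h and 0.022 over contralateral time, and AF030358_at 0.022 in spread at 4 h. Array weights gave rc_AA800602_s_at 0.031 and AF030358_g_at -0.026 between sides at 4 h, and the covariate gave AF030358_g_at -0.081 between hippocampal sides, -0.042 over ipsilateral time and -0.11 by region. The cause was not tested. With 1 array left out, ranges that crossed 0 were -0.22 to 0.014 (Ccl2 X17053mRNA_s_at), -0.20 to 0.065 (Ccl4) and -0.10 to 0.068 (Cxcl10) over contralateral time, -0.049 to 0.29 (Ccl3) and -0.11 to 0.23 (Ccl4) between regions, and -0.35 to 0.084 (Ccl4) by region. Between cortical sides at 4 h they were -0.026 to 0.075 (AF030358_g_at) and -0.067 to 0.040 (rc_AA800602_s_at). In spread they were -0.026 to 0.029 at 4 h and -0.019 to 0.061 at 24 h (AF030358_at), -0.038 to 0.059 (AF030358_g_at) and -0.0067 to 0.20 (Ccl4).

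Quantile normalization moved the median of all probe sets between contralateral regions by -0.10. No paired analysis was possible because the labels number extractions and do not say which samples came from the same animal. The number of arrays and the signals at the floor limit the precision.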
